A study of Mus musculus with 12 samples.

Results

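The genes of RNA polymerase I, II and III subunits were followed in mouse central regulatory T (cTreg) cells before and after activation, with and without inhibition of mTOR. The members were all rows of the array table that carried exactly 1 gene symbol starting with Polr1, Polr2 or Polr3 and a subunit letter from a to m, with the row of highest mean where a gene had several, which gave 27 of the 22180 genes tested. One of them, Polr2d-ps2, is a pseudogene, so that 26 protein-coding subunit genes remained. By the enzymes they belong to, 3 were specific to Pol I (Polr1a, Polr1b, Polr1e), 2 were shared by Pol I and III (Polr1c, Polr1d), 4 were shared by all 3 polymerases (Polr2e, Polr2f, Polr2k, Polr2l), 8 were counted with Pol II (Polr2a, Polr2b, Polr2c, Polr2d, Polr2g, Polr2i, Polr2j, Polr2m) and 9 with Pol III (Polr3a to Polr3g, Polr3gl and Polr3k). Polr2h, which is shared by all 3 enzymes, was measured only by rows that also name a second gene.

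Cells were sorted as YFP+CD4+CD62LhiCD44lo from spleen and peripheral lymph nodes of Foxp3-YFP+ transgenic mice on the C57BL/6 background, in which YFP marks Foxp3-expressing cells. Each of 4 groups had 3 arrays: unstimulated cells at 0 h, labelled as in DMSO, and cells cultured for 20 h with anti-CD3 and anti-CD28 antibodies and IL-2 in DMSO (the vehicle), in Torin 1 at 50 nM or in PP242 at 500 nM. Torin 1 and PP242 are inhibitors of the mTOR kinase active site, and their doses differed. There was no unstimulated culture of 20 h, so that activation cannot be told apart from 20 h of culture with IL-2. Values were log2 signals of Mouse Gene 2.0 ST arrays from 500 pg of total RNA per sample. Because the RNA input was fixed, a value is relative to the other transcripts of the same sample, and a change in total RNA per cell does not show in it.

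Eukaryotic cells divide transcription between 3 nuclear enzymes. Pol I makes the large ribosomal RNA precursor, Pol II makes mRNA, and Pol III makes tRNA, the small ribosomal RNA and other short RNAs. The enzymes share a core of common subunits, and each adds its own large catalytic subunits and peripheral proteins. mTOR is known to stimulate ribosomal RNA and tRNA synthesis in growing cells, in part through factors such as Rrn3 and Maf1.

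All 8 measured markers of regulatory and helper T cells (Foxp3, Il2ra, Ctla4, Ikzf2, Cd4, Cd3e, Cd3g and Cd3d) were above the dim level, a log2 value of 4.84 defined as the median of transcript clusters with no gene symbol. The group medians of these 8 markers ranged from 10.48 to 10.98. On activation Foxp3, the lineage factor of regulatory T cells, fell by 0.61 on the log2 scale (adjusted p = 0.000163) and Ctla4 fell by 0.53 (adjusted p = 0.0012), while Cd4, Cd3e and Cd3g rose, and with PP242 Foxp3 and Ctla4 were higher than in DMSO (adjusted p = 0.0302 and 0.0308). For 27 markers of CD8 T, B, NK, myeloid, dendritic cells and platelets the group medians ranged from 4.71 to 4.84. However, 14 of them exceeded the dim level, some by far. In unstimulated cells the mean was 8.08 for Cd8b1, 7.41 for Cd68, 7.39 for Itgb3 and 6.49 for Itga2b. On activation 7 of the 27 fell (Cd79b, Ncr1, Klrd1, Cd68, Itga2b, Itgb3 and Treml1) and 1 rose (Ms4a1). With Torin 1, Itga2b was higher and Ms4a1 lower than in DMSO, and with PP242, Cd68, Itga2b and Itgb3 were higher. The part of other cells in the subunit results was not tested, and in bulk samples fewer cells of a type and less RNA per cell cannot be told apart. The lowest array correlation over all transcript clusters was 0.964, and no pair of arrays held identical values.

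Most subunit genes were higher after 20 h of activation. In limma's moderated test with Benjamini-Hochberg adjustment over all genes (a call is an adjusted p under 0.05), 16 of the 26 rose and 1, Polr3gl, fell, against 11.8% of all genes tested called higher and 12.1% called lower. The median change of the 26 was 0.48 on the log2 scale, and that of all genes was -0.035. In 19 of the 26 all 3 DMSO arrays lay above all 3 unstimulated arrays, and in 0 below them. Of all 22180 genes, 3859 did so above and 4670 below. All but 1 of the 26 (Polr2l, mean 4.87) stood well clear of the dim level, and the pseudogene Polr2d-ps2 (mean 4.23) lay below it and was called in none of the comparisons.

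Part of this set was lower with either inhibitor. With PP242, 14 of the 26 were lower than in DMSO and 1, Polr3gl, was higher, against 9.27% of all genes lower and 7.38% higher. With Torin 1, 5 were lower and 0 higher, against 4.79% lower and 3.33% higher over all genes. At an unadjusted p under 0.05, 12 were lower and 1 higher, against 2376 and 2204 of all 22180 genes. The median change of the 26 was -0.445 with PP242 and -0.249 with Torin 1, where the medians over all genes were 0.012 and 0.013. The DMSO arrays enter each of these comparisons, so that they are not independent of each other. The Torin 1 count rested on few arrays: it was 1 without DMSO replicate 1 or DMSO replicate 2, 3 without Torin 1 replicate 1 or replicate 2, and 2 without Torin 1 replicate 3. Polr2d alone passed in every alternative at the threshold of 0.05.

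**Figure D1:**
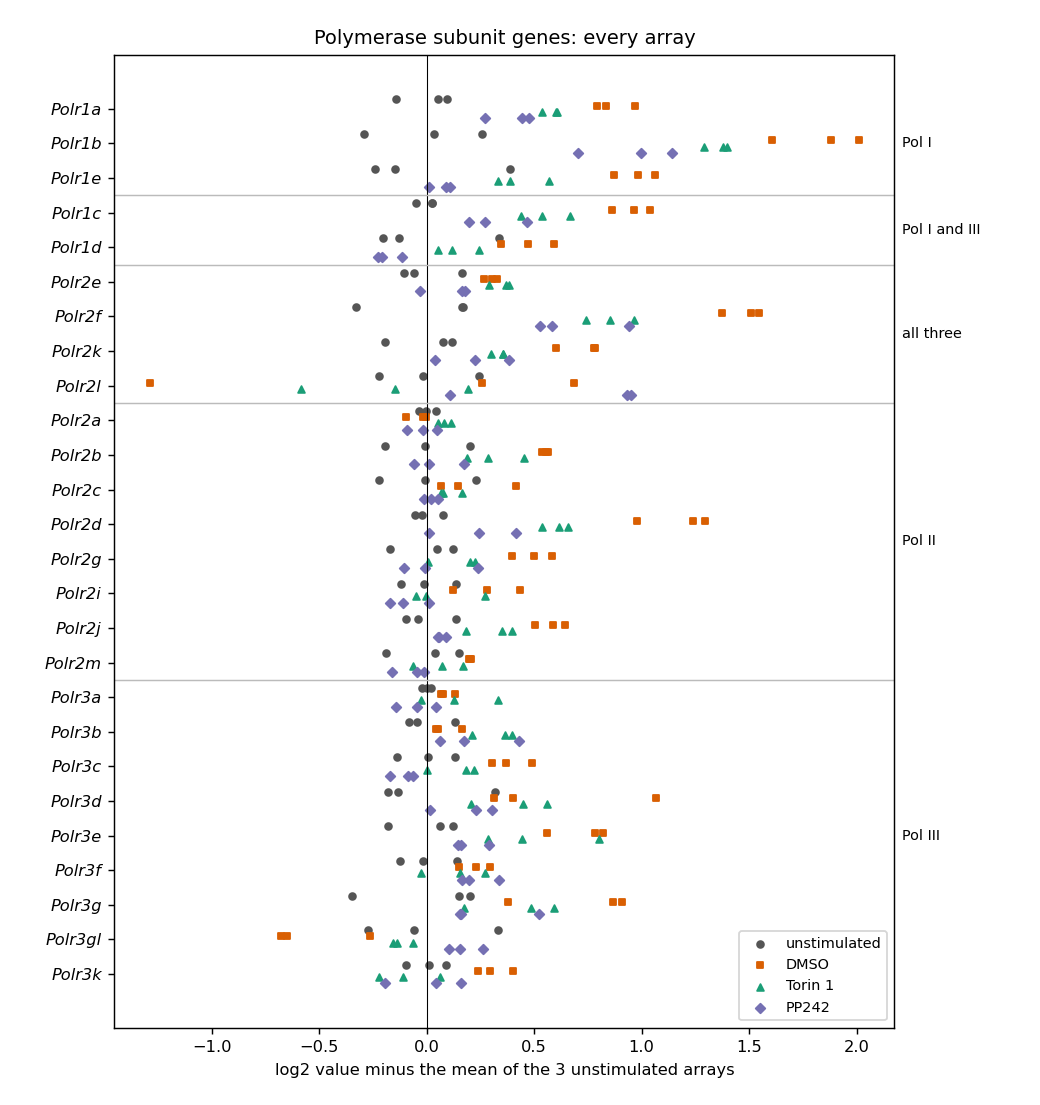
Log2 value of each of the 26 protein-coding subunit genes on each of the 12 arrays, minus the mean of the gene's 3 unstimulated arrays (x axis), with genes in rows grouped by polymerase and symbols for the 4 groups. The DMSO arrays lie farthest to the right for Polr1b, Polr2f and Polr2d, whereas for Polr3gl they lie on the left.

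In inhibitor-treated cells some subunit genes stayed above their unstimulated level. Against unstimulated cells, 6 of the 26 were higher with Torin 1 (Polr1a, Polr1b, Polr1c, Polr2d, Polr2f and Polr3e) and 0 were lower. Of all genes, 4.42% were higher and 3.31% lower. At an unadjusted p under 0.05, 0 of the 26 were lower, against 2549 of all 22180 genes. With PP242, 2 were higher (Polr1b and Polr2f) and 0 lower, where 1.73% of all genes were higher and 1.34% lower. At an unadjusted p under 0.05 again 0 were lower, against 1654 of all 22180 genes. The ordered means were DMSO, Torin 1, PP242 and unstimulated, from high to low, in 14 of the 26 genes. This order was not counted over all genes. The call of Polr3e rested on few arrays, as its adjusted p was 0.137, 0.05 and 0.0705 without each unstimulated replicate in turn, 0.134 without Torin 1 replicate 2 and 0.0658 without Torin 1 replicate 3. That of Polr2f with PP242 was lost without unstimulated replicate 1 (adjusted p = 0.0806) or PP242 replicate 3 (adjusted p = 0.092), which left 1 gene higher.

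When the inhibitors were set against each other, no subunit gene passed the limma test. Over all genes 0.162% were called higher and 0.23% lower with PP242 than with Torin 1. At an unadjusted p under 0.05, 1 subunit gene was higher and 10 were lower, against 1235 and 1457 of all 22180 genes. The count after adjustment was also 0 in the ordinary linear model without moderation. PP242 means were below Torin 1 means in 22 of the 26, with a median difference of -0.176. Over all 22180 genes they were below in 11356, with a median of -0.005. All 3 PP242 arrays lay below all 3 Torin 1 arrays in 11 genes and above them in 1, where 9.1% of all genes did so below and 7.89% above. The doses differed, so that these values do not rank the compounds.

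Each of the 3 Pol I subunit genes rose on activation and was lower with PP242. Polr1b, which encodes the second-largest catalytic subunit, measured 6.61, 6.94 and 7.16 in unstimulated cells and 8.92, 8.78 and 8.51 in DMSO. It measured 8.28, 8.19 and 8.30 with Torin 1 and 7.90, 8.05 and 7.61 with PP242. No group overlapped another in this gene. Polr1b rose by 1.83 on activation (SE 0.15, 3.56-fold, adjusted p = 1.41e-06), the largest change among the subunits. With PP242 it was lower by 0.88 on the log2 scale than in DMSO (SE 0.15, 1.85-fold, adjusted p = 0.00113). The Torin 1 difference of -0.48 (SE 0.15) did not pass (adjusted p = 0.0727), although all 3 arrays lay below DMSO, and it passed without DMSO replicate 3 (adjusted p = 0.0498). Polr1b remained above unstimulated cells with Torin 1 (1.35, adjusted p = 8.51e-05) and with PP242 (0.95, adjusted p = 0.00301).

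Polr1a, the largest catalytic subunit, measured 7.42, 7.66 and 7.62 in unstimulated cells, 8.36, 8.53 and 8.40 in DMSO, 8.17, 8.10 and 8.17 with Torin 1, and 8.01, 8.04 and 7.84 with PP242. The 4 groups again did not overlap. It rose by 0.86 (SE 0.10, adjusted p = 2.81e-05) on activation and was lower with PP242 (-0.47, SE 0.10, adjusted p = 0.00569), while the Torin 1 difference was -0.28 (adjusted p = 0.114). Polr1e encodes a subunit of the Pol I initiation module. It measured 5.85, 5.76 and 6.39 in unstimulated cells, 6.87, 7.06 and 6.98 in DMSO, 6.57, 6.39 and 6.33 with Torin 1 and 6.01, 6.11 and 6.09 with PP242. The DMSO arrays were the highest, and the PP242 arrays fell within the unstimulated range. Polr1e rose by 0.97 (SE 0.14, adjusted p = 0.000179) and was lower with PP242 (-0.90, SE 0.14, adjusted p = 0.00061) and with Torin 1 (-0.54, adjusted p = 0.0319). The Torin 1 call of Polr1e was lost when any of the 3 DMSO replicates, Torin 1 replicate 2 or Torin 1 replicate 3 was left out (adjusted p from 0.0506 to 0.104).

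The other measured Pol I subunits, which carry symbols outside the rule, included 1 that was called. Cd3eap, the partner of Polr1e in the initiation module, rose by 0.85 (SE 0.15, adjusted p = 0.000903) and was lower with Torin 1 (-0.65, adjusted p = 0.0169) and PP242 (-0.63, adjusted p = 0.0105). Twistnb, a stalk subunit, and Znrd1, a small subunit involved in RNA cleavage, were called in none of these comparisons, with activation changes of 0.20 and 0.29.

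Both subunits shared by Pol I and III form the assembly platform of those enzymes. Polr1c measured 7.87, 7.95 and 7.95 in unstimulated cells, 8.89, 8.96 and 8.78 in DMSO, 8.36, 8.59 and 8.45 with Torin 1, and 8.12, 8.19 and 8.38 with PP242. Unstimulated and DMSO arrays enclosed both inhibitor groups, which overlapped each other by a narrow margin. Polr1c rose by 0.96 (SE 0.10, adjusted p = 1.31e-05), and was lower with Torin 1 (-0.41, adjusted p = 0.0264) and PP242 (-0.64, adjusted p = 0.000684). The Torin 1 call was lost without DMSO replicate 1 (adjusted p = 0.0702), DMSO replicate 2 (adjusted p = 0.0953), Torin 1 replicate 1 (adjusted p = 0.11) or Torin 1 replicate 3 (adjusted p = 0.0716). Polr1d measured 7.41, 7.34 and 7.88 in unstimulated cells and 8.01, 8.13 and 7.88 in DMSO, so that 1 unstimulated array stood at the lower edge of the DMSO range. It measured 7.66, 7.59 and 7.78 with Torin 1 and 7.31, 7.33 and 7.43 with PP242. Its rise of 0.47 (SE 0.13, adjusted p = 0.019) was lost without unstimulated replicate 1 (adjusted p = 0.0793), unstimulated replicate 2 (adjusted p = 0.091) or DMSO replicate 2 (adjusted p = 0.0742). With PP242 it was lower by 0.65 on the log2 scale (SE 0.13, adjusted p = 0.00358), and the Torin 1 difference was -0.33 (adjusted p = 0.16).

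**Figure D2:**
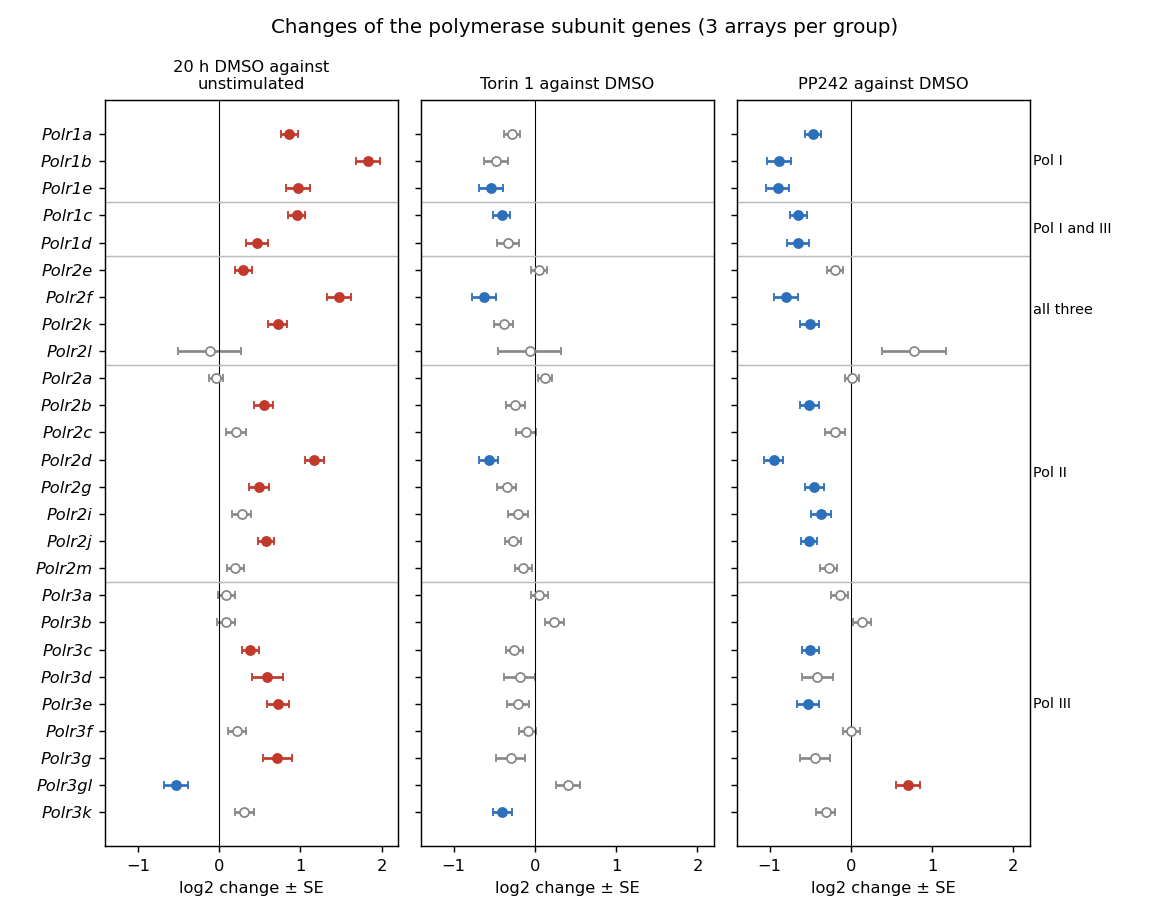
Log2 change (x axis, point) with its standard error (bar) of each of the 26 subunit genes in activation, Torin 1 against DMSO and PP242 against DMSO, from 3 arrays per group. Filled points passed an adjusted p of 0.05 in limma (red higher, blue lower) and open points did not: 17 were called in activation, 5 with Torin 1 and 15 with PP242.

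Among the subunits shared by all 3 enzymes, Polr2f changed most. It encodes a small subunit of the common core, and measured 7.41, 7.91 and 7.91 in unstimulated cells, 9.25, 9.29 and 9.12 in DMSO, 8.48, 8.71 and 8.59 with Torin 1 and 8.27, 8.33 and 8.68 with PP242. Every inhibitor array lay between the unstimulated and DMSO arrays. Polr2f rose by 1.48 (SE 0.15, 2.78-fold, adjusted p = 5.99e-06) and was lower with PP242 (-0.79, adjusted p = 0.00181) and Torin 1 (-0.63, adjusted p = 0.0171). The Torin 1 call was lost without DMSO replicate 1 (adjusted p = 0.0525), DMSO replicate 2 (adjusted p = 0.0619) or Torin 1 replicate 1 (adjusted p = 0.0735). Its level stayed above unstimulated cells with Torin 1 (0.85, adjusted p = 0.00227) and with PP242 (0.68, adjusted p = 0.0202).

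Polr2k, a zinc-binding subunit, measured 7.84, 8.11 and 8.16 in unstimulated cells, 8.82, 8.82 and 8.64 in DMSO, 8.39, 8.39 and 8.34 with Torin 1 and 8.07, 8.26 and 8.42 with PP242. The DMSO arrays stood above all others. It rose by 0.72 (SE 0.12, adjusted p = 0.000386) and was lower with PP242 (-0.51, adjusted p = 0.00769), and the Torin 1 difference of -0.39 did not pass (adjusted p = 0.0586), but did without unstimulated replicate 1 (adjusted p = 0.0455), PP242 replicate 1 (adjusted p = 0.0499) or PP242 replicate 3 (adjusted p = 0.0485). Polr2k had 4 transcript clusters, and the other three gave activation changes of 0.27, 0.75 and 0.50 and PP242 changes of -0.05, -0.53 and -0.27. With the median over its clusters the PP242 call of Polr2k was lost (adjusted p = 0.368).

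The remaining common subunits gave weaker results. Polr2e measured 9.45, 9.41 and 9.67 in unstimulated cells and 9.84, 9.81 and 9.78 in DMSO, a rise of 0.30 (SE 0.10, adjusted p = 0.0462) without overlap, which was lost on leaving out any of 10 arrays, all but unstimulated replicate 3 and PP242 replicate 1 (adjusted p from 0.0513 to 0.162). Its Torin 1 and PP242 changes were 0.05 and -0.20. Polr2l lay near the dim level and spread widely, with 5.04, 5.47 and 3.49 in DMSO and 4.89, 5.71 and 5.73 with PP242, and passed no test. Rows that name both Polr2h and Gm7511 cannot be given to the subunit alone, and they differed in direction on activation. The brighter row had group means of 7.53 ± 0.15 in unstimulated cells and 8.54 ± 0.27 in DMSO (SD, n = 3). Its means were 8.04 ± 0.13 with Torin 1 and 7.96 ± 0.30 with PP242. The dimmer row lay near the dim level, with 5.31 ± 0.16 in unstimulated cells and a lower mean of 5.09 ± 0.38 in DMSO. Its means were 4.77 ± 0.47 with Torin 1 and 4.90 ± 0.36 with PP242. Neither row was part of the fit.

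Among the Pol II subunits, the stalk subunit Polr2d had the largest activation change. Polr2d measured 6.51, 6.55 and 6.65 in unstimulated cells, 7.81, 7.87 and 7.55 in DMSO, 7.19, 7.10 and 7.22 with Torin 1 and 6.58, 6.81 and 6.98 with PP242. The DMSO, Torin 1 and PP242 arrays did not overlap. It rose by 1.17 (SE 0.12, 2.25-fold, adjusted p = 7.62e-06) and was lower with PP242 (-0.95, SE 0.12, 1.93-fold, adjusted p = 0.00011) and Torin 1 (-0.57, SE 0.12, adjusted p = 0.00915). Polr2g, which pairs with Polr2d in the stalk, measured 9.43, 9.65 and 9.72 in unstimulated cells, 10.00, 10.10 and 10.18 in DMSO, 9.61, 9.83 and 9.80 with Torin 1 and 9.59, 9.50 and 9.84 with PP242. Its DMSO arrays were the highest in every case. It rose by 0.49 (SE 0.12, adjusted p = 0.0075) and was lower with PP242 (-0.45, adjusted p = 0.0175), a call lost without DMSO replicate 3 (adjusted p = 0.062), PP242 replicate 1 (adjusted p = 0.0638) or PP242 replicate 2 (adjusted p = 0.0771).

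The catalytic subunits of Pol II were unlike each other in their values. Polr2a, the largest, whose C-terminal repeats are phosphorylated during the transcription cycle, measured 10.19, 10.24 and 10.16 in unstimulated cells, 10.19, 10.18 and 10.09 in DMSO, 10.27, 10.31 and 10.24 with Torin 1 and 10.18, 10.24 and 10.10 with PP242. Its arrays spanned a narrow range in all groups, and its changes were -0.04 (SE 0.09), 0.12 and 0.02, none of which passed. Polr2b, the second-largest subunit, measured 9.03, 9.21 and 9.42 in unstimulated cells, 9.76, 9.77 and 9.78 in DMSO, 9.51, 9.67 and 9.41 with Torin 1 and 9.16, 9.23 and 9.39 with PP242. It rose by 0.55 (SE 0.12, adjusted p = 0.00296) and was lower with PP242 (-0.51, adjusted p = 0.00741), whereas Torin 1 gave -0.24 (adjusted p = 0.253). The PP242 arrays lay within the unstimulated range.

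Of the smaller Pol II subunits, Polr2j, part of the assembly platform, measured 9.11, 9.16 and 9.34 in unstimulated cells, 9.71, 9.84 and 9.79 in DMSO, 9.38, 9.60 and 9.55 with Torin 1 and 9.25, 9.26 and 9.29 with PP242. It rose by 0.58 (SE 0.10, adjusted p = 0.000619) and was lower with PP242 (-0.51, adjusted p = 0.00256). Polr2i, which acts in transcript cleavage, was lower with PP242 by 0.37 on the log2 scale (adjusted p = 0.0498), but not when any of 10 arrays, all but DMSO replicate 3 and Torin 1 replicate 2, was left out (adjusted p from 0.0531 to 0.183). Polr2c, the platform partner of Polr2j, changed by 0.21, -0.11 and -0.19 in activation, Torin 1 and PP242. For Polr2m, a Pol II-associated protein that is not part of the core enzyme, the changes were 0.20, -0.14 and -0.27. Neither gene was called in the fit reported, and the PP242 change of Polr2m was called only under quantile normalization across arrays (adjusted p = 0.0441).

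Pol III genes were called in both directions. Its catalytic subunits Polr3a and Polr3b were not called in any comparison, with activation changes of 0.09 (SE 0.10) and 0.09 (SE 0.11). Polr3a measured 8.21, 8.23 and 8.19 in unstimulated cells and 8.27, 8.28 and 8.34 in DMSO, a shift without overlap but of small size. The other subunits of the enzyme included 4 that rose on activation.

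Polr3e, which with Polr3d forms a dimer related to the Pol II factor TFIIF, measured 6.71, 7.01 and 6.95 in unstimulated cells, 7.67, 7.71 and 7.45 in DMSO, 7.17, 7.69 and 7.33 with Torin 1 and 7.05, 7.03 and 7.18 with PP242. The PP242 arrays lay below all DMSO arrays, while 1 Torin 1 array lay among them. Polr3e rose by 0.72 (SE 0.14, adjusted p = 0.00131) and was lower with PP242 (-0.52, adjusted p = 0.0159), a call lost without DMSO replicate 1 (adjusted p = 0.0532), DMSO replicate 2 (adjusted p = 0.0613), PP242 replicate 1 (adjusted p = 0.0553) or PP242 replicate 2 (adjusted p = 0.0528). Polr3d measured 6.00, 5.51 and 5.55 in unstimulated cells and 6.09, 6.75 and 6.00 in DMSO, with the groups touching at their edges. Its rise of 0.59 (SE 0.19, adjusted p = 0.0337) was lost without unstimulated replicate 2 (adjusted p = 0.122), unstimulated replicate 3 (adjusted p = 0.114) or DMSO replicate 2 (adjusted p = 0.149).

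Polr3c and Polr3f belong to the trimer of Pol III that also holds Polr3g or Polr3gl and that acts in promoter opening. Polr3c measured 8.22, 8.49 and 8.36 in unstimulated cells, 8.72, 8.66 and 8.84 in DMSO, 8.57, 8.54 and 8.35 with Torin 1 and 8.26, 8.29 and 8.18 with PP242. The DMSO arrays were above all others. Polr3c rose by 0.39 (SE 0.10, adjusted p = 0.0145), which was lost without unstimulated replicate 1 (adjusted p = 0.0667) or DMSO replicate 3 (adjusted p = 0.0565), and was lower with PP242 (-0.50, adjusted p = 0.00437). Polr3f passed no test, and changed by 0.22, -0.09 and 0.01 in activation, Torin 1 and PP242. Polr3k, which acts in RNA cleavage and termination, measured 8.05, 7.94 and 8.12 in unstimulated cells, 8.28, 8.44 and 8.33 in DMSO, 8.10, 7.82 and 7.93 with Torin 1 and 8.08, 7.84 and 8.20 with PP242. The DMSO arrays lay above all others. Its activation change of 0.31 (adjusted p = 0.0657) and its PP242 change of -0.31 (adjusted p = 0.0871) did not pass, but both did with arrays centred on their medians (adjusted p = 0.0284 and 0.0489) or with dim genes filtered out (adjusted p = 0.0386 and 0.0496), and the activation change also did with a trend and robust moderation (adjusted p = 0.043). It was lower with Torin 1 by 0.40 on the log2 scale (adjusted p = 0.046), a call lost when any of 9 arrays was left out, namely any unstimulated or DMSO replicate, Torin 1 replicate 2 or 3, or PP242 replicate 1 (adjusted p from 0.0571 to 0.153). Crcp, a Pol III stalk subunit outside the rule, rose by 0.29 (SE 0.09, adjusted p = 0.0373) and gave -0.03 in the Torin 1 comparison and -0.16 in that of PP242.

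Polr3g and Polr3gl encode alternative versions of the same Pol III subunit, and they moved in opposite directions. In human cells Polr3g is known to be abundant in stem and tumour cells and Polr3gl in differentiated tissue. Polr3g measured 6.16, 6.71 and 6.65 in unstimulated cells, 6.88, 7.37 and 7.41 in DMSO, 7.10, 6.68 and 6.99 with Torin 1 and 6.66, 7.03 and 6.66 with PP242. Polr3gl measured 7.24, 7.46 and 7.85 in unstimulated cells, 6.87, 7.25 and 6.84 in DMSO, 7.38, 7.45 and 7.36 with Torin 1 and 7.78, 7.67 and 7.62 with PP242. The DMSO group was thus the highest of the 4 in mean for Polr3g and the lowest for Polr3gl. In both genes some single arrays of DMSO overlapped another group.

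On activation Polr3g rose by 0.72 (SE 0.18, adjusted p = 0.00978), which was lost without unstimulated replicate 1 (adjusted p = 0.053). Polr3gl fell by 0.53 on the log2 scale (SE 0.15, adjusted p = 0.0171), which was lost without unstimulated replicate 3 (adjusted p = 0.0851), DMSO replicate 1 (adjusted p = 0.0635) or DMSO replicate 3 (adjusted p = 0.0667). With PP242, Polr3gl was higher than in DMSO (0.70, SE 0.15, 1.63-fold, adjusted p = 0.00436), and this call stood under every alternative. Polr3g gave -0.44 with PP242 (adjusted p = 0.126), and -0.30 with Torin 1, and Polr3gl gave 0.41 with Torin 1 (adjusted p = 0.113). The PP242 difference of Polr3g passed without DMSO replicate 1 (adjusted p = 0.0406). The change of Polr3g minus that of Polr3gl was 1.25 (SE 0.22) on activation, -0.71 (SE 0.23) with Torin 1 and -1.14 (SE 0.22) with PP242. Arrays of the groups compared did not overlap in this difference in any of these comparisons, and the two-sided exact permutation test gave p = 0.1 in each, the smallest that 3 against 3 arrays allow.

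**Figure D3:**
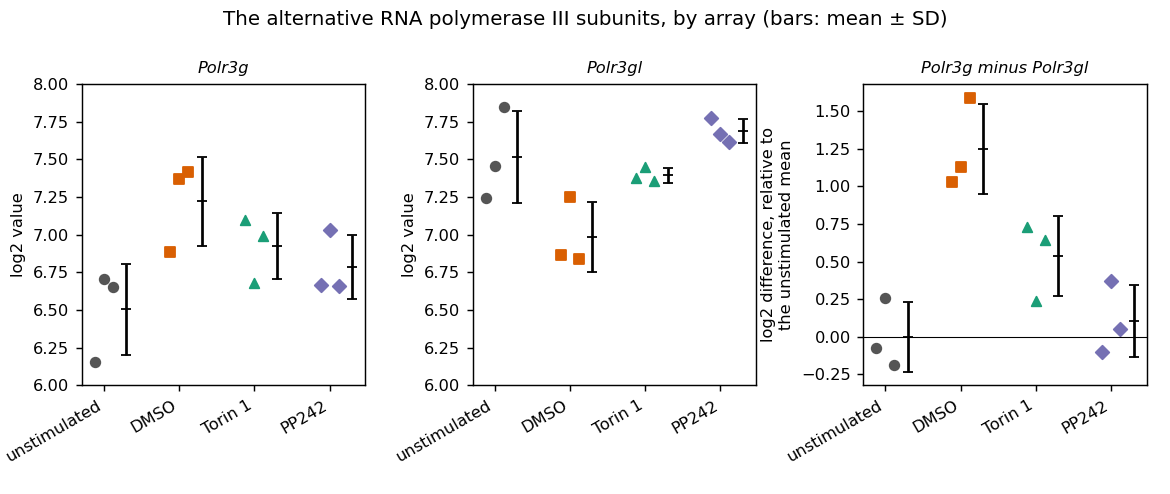
Log2 values of Polr3g and Polr3gl on each array (points) with group mean ± SD (bars, n = 3), and on the right the log2 difference of these genes relative to its unstimulated mean. The difference was 1.25 higher in DMSO than in unstimulated cells and 1.14 lower with PP242 than in DMSO.

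The sequences before the start sites of this pair are shown because the genes make the same subunit yet moved oppositely. They are the 250 bases upstream of the RefSeq start (build GRCm38.p6), for Polr3g at chr13:81711014-81711263, minus strand, and for Polr3gl at chr3:96594182-96594431, minus strand, each written 5′ to 3′ on the strand of the gene. Capitals mark CCGGAAG, a core sequence of ETS family factors, on either strand, or CACGTG, the E-box recognised by Myc and related factors.
Polr3g: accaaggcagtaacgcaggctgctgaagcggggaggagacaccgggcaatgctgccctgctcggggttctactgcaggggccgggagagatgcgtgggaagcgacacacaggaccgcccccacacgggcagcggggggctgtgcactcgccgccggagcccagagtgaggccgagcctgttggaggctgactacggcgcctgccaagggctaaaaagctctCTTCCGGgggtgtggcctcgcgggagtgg
Polr3gl: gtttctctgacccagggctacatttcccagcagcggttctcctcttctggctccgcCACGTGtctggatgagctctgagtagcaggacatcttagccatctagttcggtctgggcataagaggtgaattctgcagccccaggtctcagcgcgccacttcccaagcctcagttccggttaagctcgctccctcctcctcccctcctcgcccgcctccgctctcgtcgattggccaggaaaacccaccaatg
The Polr3g stretch held 1 match to CCGGAAG and no E-box. This match began 29 bases before the start and read on the strand opposite the gene (printed as its reverse complement). The Polr3gl stretch held 1 E-box, 194 bases before the start, and no full CCGGAAG. It did hold the shorter ttccgg, which is CCGGAA on the opposite strand, so that the absence is of the full word only. On either strand CCAAT was also in the Polr3gl stretch, 24 and 6 bases before the start, but not in that of Polr3g.

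Windows from 250 bases before to 50 after the start were found for 21 of the 27 members (22 windows, as Polr2m had 2). CCGGAAG was in 7 of the 22 windows (31.8%), where 8.86% of all 32851 windows and 11.6% of the 21262 windows of protein-coding genes held it. These were the windows of Polr1c, Polr1e, Polr2c, Polr2f, Polr2j, Polr3b and Polr3g. CACGTG was in 3 (Polr3c, Polr3e and Polr3gl), which is 13.6%, against 7.15% of all windows and 7.84% of those of protein-coding genes. CCAAT was in 31.8% of the member windows and 37.4% of all, and TATAAA in 9.09% (Polr2a and Polr2c) and 13.6%. No test was made on these shares, and a match is a description of letters only. The match began before the start by 42 bases in Polr1c, 29 in Polr3g, 19 in Polr2j, 17 in Polr2f and 11 in Polr3b, and after it by 17 bases in Polr2c and 25 in Polr1e. Polr3b and Polr2c, which were not called in activation, thus held the motif as well. Conversely, Polr1a, Polr1b, Polr1d, Polr2b, Polr2e, Polr3c and Polr3e rose on activation and had windows without it. No window was found for the protein-coding members Polr2d, Polr2g, Polr2k, Polr3a and Polr3d.

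The last 120 bases before the start are printed for Polr2f, the common subunit that changed most, and for Polr2j, to show the motif near a start, with CCGGAAG in capitals, for Polr2f at chr15:79141205-79141324, plus strand, and for Polr2j at chr5:136116571-136116690, plus strand, in GRCm38.p6.
Polr2f: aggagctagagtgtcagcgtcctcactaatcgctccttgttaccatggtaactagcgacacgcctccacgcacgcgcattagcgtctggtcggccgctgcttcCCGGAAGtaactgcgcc
Polr2j: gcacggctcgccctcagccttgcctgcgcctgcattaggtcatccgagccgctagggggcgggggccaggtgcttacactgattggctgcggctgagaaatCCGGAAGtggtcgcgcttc

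The classes are set side by side as a description, and hold only genes taken by the rule. The Pol I class leaves out Cd3eap, Twistnb and Znrd1. The median change of these genes was 0.29 on activation, -0.27 with Torin 1 and -0.03 with PP242. The Pol III class leaves out Crcp (0.29, -0.03 and -0.16). The class medians therefore depend on the symbols that the rule takes. The median activation change was 0.971 over the 3 Pol I genes, 0.712 over the 2 genes of Pol I and III, 0.51 over the 4 common genes, 0.386 over the 8 Pol II genes and 0.311 over the 9 Pol III genes. All 3 Pol I genes and both genes of Pol I and III rose, as did 3 of 4 common genes, 4 of 8 Pol II genes and 4 of 9 Pol III genes. Only Polr3gl, of Pol III, fell, where 11.8% of all genes rose and 12.1% fell. With PP242 the medians in the same order of classes were -0.885, -0.648, -0.352, -0.41 and -0.309, and 3, 2, 2, 5 and 2 genes were lower. Polr3gl was higher, and over all genes 9.27% were lower and 7.38% higher. With Torin 1 the medians were -0.479, -0.37, -0.225, -0.225 and -0.19. In each class 1 gene was lower, where 4.79% of all genes were. The classes hold few genes measured on the same arrays, so that no test between them was made. The median of the common genes depended on Polr2l on 1 array, as its Torin 1 value was -0.549 without DMSO replicate 3, on which Polr2l read 3.49.

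**Figure D4:**
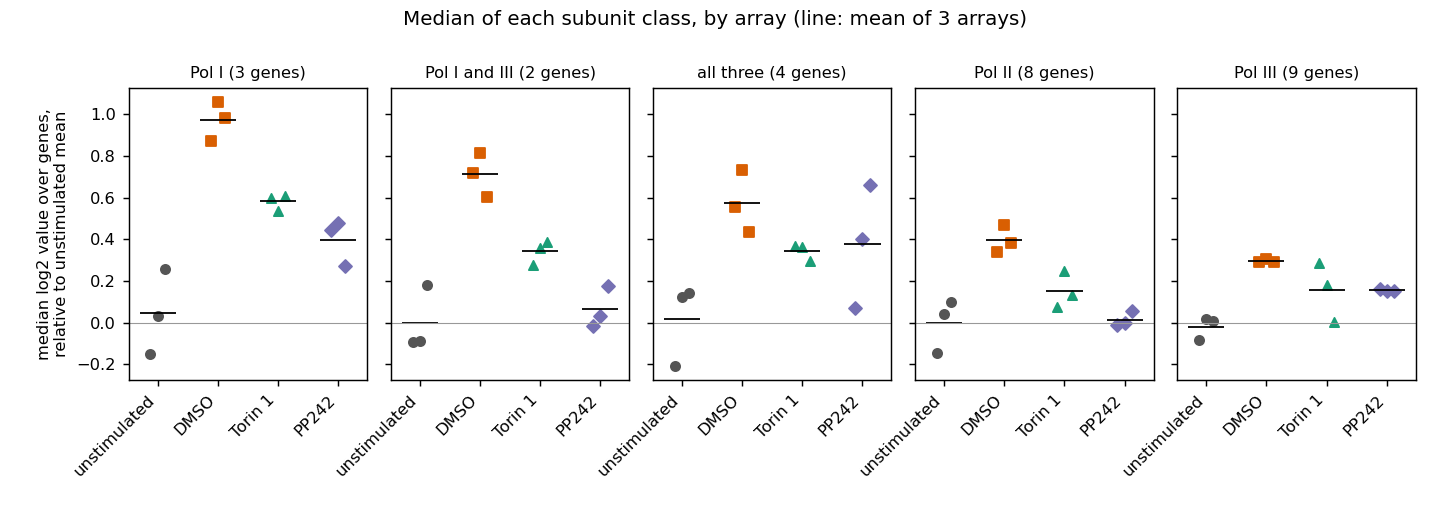
Median over the genes of each subunit class on each array (points), after subtracting the gene's unstimulated mean, with the mean of 3 arrays as a line (y axis in log2 units). The DMSO arrays are above the unstimulated arrays in every class, by the widest margin in the Pol I genes taken by the rule.

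Factors that work with each polymerase were counted from lists written by hand, to be read against the shares of all genes called and the medians near 0 over all genes given above. Of 8 Pol I factors, 3 rose on activation: Ubtf, which keeps ribosomal DNA open (1.25, SE 0.11, adjusted p = 2.02e-06), Rrn3, which joins Pol I to its promoter (0.82, SE 0.11, adjusted p = 0.000118), and Taf1d, a subunit of the promoter selectivity factor (0.45, adjusted p = 0.00361). Rrn3 was lower with Torin 1 (-0.60, adjusted p = 0.0057) and PP242 (-0.62, adjusted p = 0.00188), and Taf1d was lower with both (-0.40 and -0.46). Ubtf was lower with PP242 (-0.37, adjusted p = 0.0304), and Taf1b, of the same selectivity factor as Taf1d, was higher (0.45, adjusted p = 0.034). The list thus had 2 lower with Torin 1, and 3 lower and 1 higher with PP242, and its median activation change was 0.13.

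Of 16 Pol III factors analysed out of 17, 3 rose and 2 fell on activation. Maf1, the repressor of Pol III that is an mTOR target, fell by 0.62 on the log2 scale (SE 0.11, adjusted p = 0.000595) and was higher with PP242 (0.44, adjusted p = 0.0101). Gtf3c6, of the initiation factor TFIIIC, rose by 0.47 (adjusted p = 0.0038) and was lower with Torin 1 (-0.40, adjusted p = 0.0261) and PP242 (-0.49, adjusted p = 0.00395). Snapc4, of the small nuclear RNA activating complex, rose by 0.46 (adjusted p = 0.0155), and Snapc3 of the same complex was higher with PP242 (0.39, adjusted p = 0.0181). With Torin 1 the count was 1 lower, and with PP242 it was 2 higher and 1 lower. The median activation change was 0.21.

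Of 29 Pol II general factors analysed out of 31, 12 rose and 1 fell on activation, 4 were lower with Torin 1, and 11 were lower and 1 higher with PP242. Gtf2h4 and Gtf2h3, of the helicase factor TFIIH, rose by 1.05 (adjusted p = 6.89e-05) and 0.97 (adjusted p = 0.000272), and Gtf2e2, of TFIIE, by 0.94 (adjusted p = 0.000302). Gtf2h3 was lower with PP242 (-1.16, adjusted p = 0.000138), as were Gtf2f1, of TFIIF (-0.84, adjusted p = 0.000413), and Gtf2h4 (-0.73, adjusted p = 0.00214). With Torin 1, Gtf2e2 (-0.58), Ccnh, the cyclin of TFIIH (-0.51), and Gtf2f1 (-0.49) were lower. The median activation change of this list was 0.28.

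The 20 Pol II elongation factors analysed out of 22 were split, with 3 higher and 3 lower on activation, 1 higher and 1 lower with Torin 1, and 1 higher and 4 lower with PP242. Larp7, which binds the 7SK RNA, rose by 0.78 (adjusted p = 0.000504), while Hexim1, the inhibitor of the elongation kinase P-TEFb, and Ccnt2, a cyclin of that kinase, fell by 0.61 and by 0.53 on the log2 scale (adjusted p = 0.00114 and 0.000562). Supt16, of the histone chaperone FACT, was lower with Torin 1 (-0.52, adjusted p = 0.012) and PP242 (-0.79, adjusted p = 0.000305), whereas Ccnt2 was higher with both (0.32 and 0.47). Nelfe, of the pausing factor NELF, was lower with PP242 (-0.51, adjusted p = 0.00686). The median activation change was 0.025.

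Of 16 genes for the assembly of polymerases, 6 rose on activation, with 0 lower at the same threshold, and 3 were lower with Torin 1 and 6 with PP242. Ruvbl1 and Ruvbl2, the ATPases of the chaperone complex that builds polymerases, rose by 1.26 (SE 0.13, adjusted p = 6.18e-06) and 1.09 (SE 0.10, adjusted p = 3.54e-06). Both were lower with Torin 1 (-0.62 and -0.56, adjusted p = 0.00768 and 0.00386) and with PP242 (-0.99 and -0.91, adjusted p = 0.000112 and 4.45e-05). Pfdn6 and Pfdn2, of the prefoldin chaperone, rose by 0.86 and 0.85, and Pfdn2 was lower with Torin 1 (-0.64, adjusted p = 0.000772) and PP242 (-0.65, adjusted p = 0.000215). The median activation change was 0.36.

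Of 7 genes for mitochondrial transcription, which uses an enzyme outside the 3 nuclear polymerases, 2 rose on activation: Tefm, an elongation factor (0.97, SE 0.12, adjusted p = 4.25e-05), and Tfb1m, a ribosomal RNA methyltransferase (0.65, adjusted p = 0.00215). Tefm was lower with Torin 1 (-0.48, adjusted p = 0.024) and PP242 (-0.78, adjusted p = 0.000515), and Tfb2m, the initiation factor, was higher with Torin 1 (0.88, adjusted p = 0.046). The median activation change was 0.28.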

How the data were processed

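The deposited table held log2 values, which the authors made by RMA (background correction, quantile normalization and probe summarisation), with Partek 6.6 named in the submitters' processing notes. The authors' methods name ANOVA of biological triplicates with Benjamini-Hochberg adjustment. The table had 41345 transcript clusters, of which 23521 carried 1 gene symbol, 1820 several and 16004 none in the platform annotation. For each of 22180 genes the cluster of highest mean was kept. Array medians ranged from 4.951 to 5.078.

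Groups came from the sample labels. One linear model over the 4 groups of 3 arrays was fitted with limma 3.58.1 (R 4.3.3) without background filter, with moderated tests and Benjamini-Hochberg adjustment over all 22180 genes, after the script was tested on simulated data. The difference of Polr3g and Polr3gl was tested by an exact permutation test. All members are named, and of each list the subunits outside the rule, up to 3 called genes of largest change per comparison, and called markers. The members and lists were chosen with earlier results of these data known. Some genes of the lists are not reported here. For arrays their number limits the precision. Alternatives changed the normalization, filter, choice of cluster, moderation, weights, samples, replicate block and threshold, or left out each array. Promoter windows came from RefSeq (GRCm38.p6); 2 further motifs, CRE and NRF1, matched 0 member windows.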

Additional observations from a re-analysis of the deposited data

How the results depend on the processing

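No called subunit change reversed its sign under any alternative. Of the 17 calls in activation, 11 stood under all alternatives that keep the threshold, as did 1 of 5 with Torin 1, 11 of 15 with PP242, 5 of 6 for Torin 1 against unstimulated cells and 1 of 2 for PP242 against unstimulated cells. The number of subunit genes lower with Torin 1 than in DMSO, 5 in the fit reported, was 1 with all transcript clusters in the fit, 9 with a trend and robust moderation, 2 without moderation, 3 with array weights, 3 with only the compared groups and 1 at an adjusted p under 0.01, and ranged from 1 to 6 with 1 array left out. The single gene lower on activation, Polr3gl, was not called (0 genes) without moderation, with only the compared groups or at an adjusted p under 0.01, and the count ranged from 0 to 1 with 1 array left out. The count of genes higher with PP242 than in unstimulated cells was 1 with all transcript clusters, with only the compared groups and at an adjusted p under 0.01, and ranged from 1 to 2 with 1 array left out. Polr1a, not called there in the fit reported (adjusted p = 0.0515), passed with dim genes filtered out (adjusted p = 0.0238) and with a trend and robust moderation (adjusted p = 0.0246). It also passed with array weights (adjusted p = 0.041) and without moderation (adjusted p = 0.0477). Across alternatives and genes, a change not called in the fit reported became called 3 times in activation, 12 times with Torin 1, 4 times with PP242, 13 times for Torin 1 against unstimulated cells and 4 times for PP242 against unstimulated cells. The cause of these shifts was not tested beyond what each alternative changes. With the median over transcript clusters, the PP242 median of the common subunits was -0.19. With 1 array left out, the activation median of the Pol I genes ranged from 0.897 to 1.17 (the highest without unstimulated replicate 3), and the Torin 1 median of the common subunits from -0.549 to -0.146.

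Whether the replicate numbers pair the arrays was not settled by the values. Deviations of same-numbered arrays from their group means correlated between -0.0724 and 0.0587. For arrays of different number and group the range was -0.0776 to 0.111. Yet 7 of 12 arrays correlated best with an array of their own number. With the replicate number as a block, 15 subunit genes rose and 1 fell on activation, 4 were lower with Torin 1 and 14 with PP242. The calls lost under the block were Polr2e in activation (adjusted p = 0.0638) and Polr3k with Torin 1 (adjusted p = 0.0525). With 3 arrays per group, a change of about the size of the smaller ones here can be missed, and levels near the dim level, as for Polr2l, carry a wide spread.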
